A study of Homo sapiens and Mus musculus with 10 samples.

Results

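Collagens and other matrix genes typical of fibroblasts were examined in tumour-bearing mouse skin: 10 genes of the 78298 gene rows in the mouse expression table, chosen by name for their place in the dermal matrix, with earlier results of these data known. They are Col1a1 (ENSMUSG00000001506), Col1a2 (ENSMUSG00000029661), Col3a1 (ENSMUSG00000026043), Col5a1 (ENSMUSG00000026837), Col6a1 (ENSMUSG00000001119), Sparc (ENSMUSG00000018593), Fn1 (ENSMUSG00000026193), Postn (ENSMUSG00000027750), Tnc (ENSMUSG00000028364) and Acta2 (ENSMUSG00000035783). The table pairs no identifier with a symbol, and the symbols are those given with the selection. All 10 were among the 14537 genes tested, which had at least 1 TPM in at least 2 libraries. TPM divides the reads of a transcript by its length and scales the result to a common library total. Levels of different genes can therefore be compared as relative transcript numbers.

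The mouse experiment asked what loss of Camp, the cathelicidin gene, from keratinocytes does to melanoma-bearing skin. Its 4 libraries, of 10 in the series, came from mice that received 200000 B16-F0-Luc mouse melanoma cells in the dorsal skin on day 1 and 30 mg imiquimod cream, a Toll-like receptor 7 agonist, on the dorsal skin daily from day 15 to day 21, with 1 piece of dorsal skin with tumour taken per mouse on day 25. The genotype tags are K14CreCampf/f, with a Cre driven by the keratin 14 promoter of basal keratinocytes, and Campf/f, with floxed Camp alleles and no Cre, which the series text calls wild type. The sources used here give no strain and no age. Which genotype each column holds is unclear, because a library with cko in its title has a description that points to a column headed WT, and a library with WT in its title to a column headed cKO. The groups are therefore called by column header, cKO columns (n = 2) and WT columns (n = 2), and differences are given between headers, not between genotypes. Camp and the markers of keratinocytes, fibroblasts, smooth muscle, melanocytes and leukocytes were not analysed here, since no mouse identifier beyond the 10 was annotated, so the labelled tissue was not checked against its markers.

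Skin dermis owes its strength to fibrils of type I collagen, built from the chains of Col1a1 and Col1a2, mixed with type III collagen and small amounts of type V, which starts the fibrils and limits their width. Fibroblasts secrete these chains together with fibronectin, on which new matrix is laid down, and with matricellular proteins such as periostin, tenascin-C and SPARC, which bind matrix and cells and are abundant in healing skin and tumour stroma. Alpha smooth muscle actin, from Acta2, is the contractile actin of vascular smooth muscle and of myofibroblasts, the contractile fibroblasts of wounds.

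All 10 genes were higher in both cKO columns than in both WT columns, and none passed the threshold of an adjusted p under 0.05 (limma, moderated test over all tested genes with Benjamini-Hochberg adjustment, adjusted p = 0.0957 to 0.309). Their log2 changes, on the log2(TPM + 1) scale, ran between 1.14 for Acta2 and 3.85 for Tnc, with a median of 2.50, against a median of 0.09 over all tested genes. With 2 libraries a group, 3 genes passed as higher in the cKO columns, 0.0206% of those tested. An unadjusted p under 0.05 with a higher value in the cKO columns was found for 10 of the 10 matrix genes and for 10.9% of tested genes. The groups did not overlap, with the cKO columns higher, for 10 of 10, against 35.4% of tested genes. A log2 change of at least 1 held for 10 of 10, against 3.92% of tested genes. Ranked by log2 change among the 14537, Tnc stood at 14, Col3a1 at 33 and Acta2, the lowest of the 10, at 458. In bulk skin, more cells of a type and more RNA per cell cannot be told apart.

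**Figure D1:**
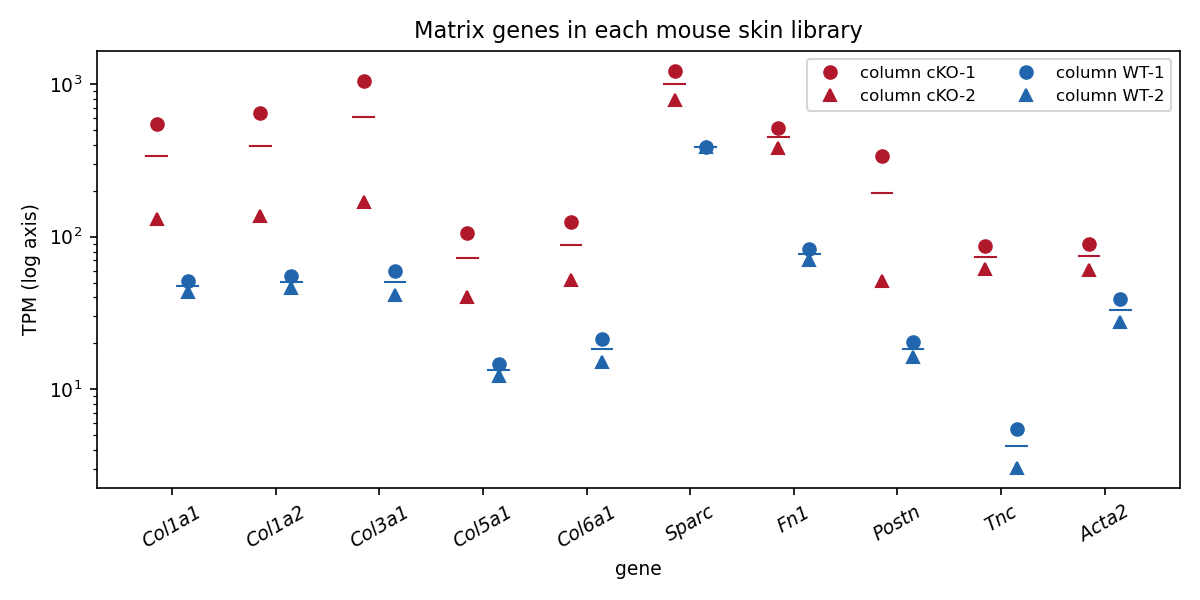
TPM (log axis) of the 10 matrix genes in each mouse library; red marks are the cKO columns and blue marks the WT columns, circles replicate 1 and triangles replicate 2, and short lines the mean of each group. For every gene both red marks lie above both blue marks, and the red marks of Col1a1, Col1a2, Col3a1 and Postn lie far apart from each other.

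The libraries were not equally alike. Over tested genes Pearson correlations were 0.956 between the cKO columns, 0.980 between the WT columns and 0.937 to 0.966 across the groups. Column cKO-2 correlated at 0.966 with column WT-1 and with column WT-2, higher than with column cKO-1. Column cKO-1 lay apart from the rest on the first principal component (53.5, against -36.8 to 3.66 in the others), and 14970 genes reached 1 TPM in it, against 14044 to 14321 in the others. The part of this library's overall difference in the results below was not tested, and its values are given separately throughout.

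Together the 10 genes made up 0.472% of all TPM in column cKO-1 and 0.187% in column cKO-2, against 0.0740% in column WT-1 and 0.0663% in column WT-2. The 5 collagen chains supplied 52.2% of that sum in column cKO-1 and 28.3% in column cKO-2, against 27.4% in column WT-1 and 23.9% in column WT-2. The collagens therefore held a larger share of the matrix sum in column cKO-1 than in the other 3 libraries.

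**Figure D2:**
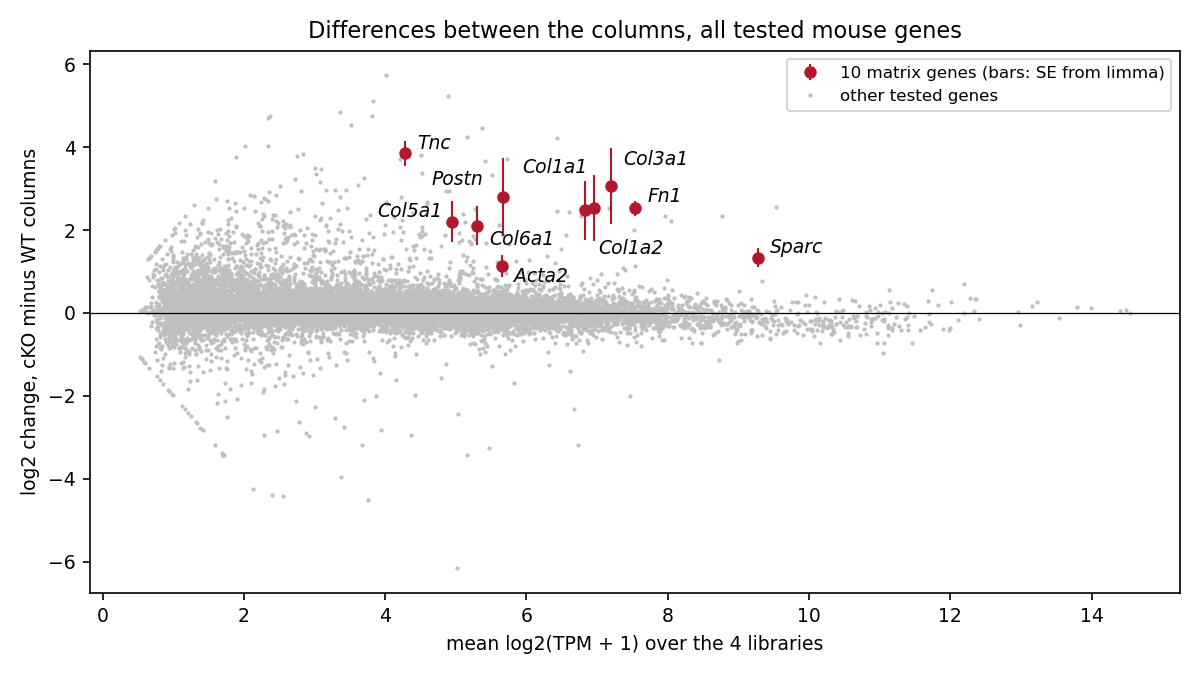
Log2 change (cKO minus WT columns, on the log2(TPM + 1) scale) against mean log2(TPM + 1) for all 14537 tested genes; grey points are other genes, red points the 10 matrix genes with their SE from limma. The red points lie between 1.14 (Acta2) and 3.85 (Tnc), and the error bars of Postn and Col3a1 are the longest.

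Among the fibrillar collagens, Col1a1, the alpha 1 chain of type I collagen, had 545 and 131 TPM in the cKO columns, against 51.5 and 43.4 TPM in the WT columns. Column cKO-1 was the high library, and column cKO-2 lay 2.55 times above the higher WT column. The mean was 338 ± 293 TPM in the cKO columns and 47.4 ± 5.71 TPM in the WT columns (SD, n = 2 each). Its log2 change was 2.48 ± 0.72 (SE) with an adjusted p of 0.284 in limma. Col1a2, the alpha 2 chain of the same molecule, had 649.6 and 136 TPM in the cKO columns, against 55.65 and 45.96 TPM in the WT columns. It repeated the order of the libraries seen for Col1a1, an order that all 10 genes shared, again with no overlap. Its log2 change was 2.53 ± 0.79 (SE; limma adjusted p = 0.292).

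Col3a1, the chain of type III collagen, which is plentiful in young and healing dermis, had 1041 and 170.0 TPM in the cKO columns, against 59.3 and 41.6 TPM in the WT columns. Column cKO-1 was 20.6 times the mean of the WT columns and column cKO-2 was 3.37 times that mean, so that both were higher but by very different amounts. The log2 change was 3.06 ± 0.92 (SE; limma adjusted p = 0.289), the largest among the 5 collagens and the one with the largest SE. Col5a1, the alpha 1 chain of type V collagen, had 106 and 40.2 TPM in the cKO columns, against 14.6 and 12.3 TPM in the WT columns. It was the least abundant collagen of the 5 in every library, with no overlap between groups and a log2 difference of 2.20 ± 0.49 (SE; adjusted p = 0.251, limma).

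Col6a1 encodes a chain of type VI collagen, which forms beaded microfibrils around cells and not the banded fibrils of types I, III and V. It had 125 and 51.8 TPM in the cKO columns, against 21.5 and 15.1 TPM in the WT columns. As for Col5a1, column cKO-1 was the high library and column cKO-2 stood clear of both WT columns. Its log2 change was 2.10 ± 0.47 (SE; limma adjusted p = 0.251).

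Fn1 and Tnc had the smallest spread between cKO columns relative to their difference from the WT columns. Fn1, the fibronectin gene, had 516 and 382 TPM in the cKO columns, against 82.8 and 70.3 TPM in the WT columns. Its lowest cKO value was 4.62 times its highest WT value. The mean was 449 ± 94.5 TPM in the cKO columns and 76.55 ± 8.78 TPM in the WT columns (SD, n = 2 each). This gave a difference of 2.52 ± 0.18 (SE) on the log2 scale, with an adjusted p of 0.0957 in limma. Fibronectin also circulates in plasma from liver, and the table gives 1 value for the 17 transcripts it lists under the gene, so splice forms were not separated.

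Tnc encodes tenascin-C, a hexameric glycoprotein that is scarce in resting adult dermis and appears around wounds and tumours. It had 86.4 and 61.3 TPM in the cKO columns, against 5.45 and 3.05 TPM in the WT columns. Both cKO columns were high, at 20.3 and 14.4 times the mean of the WT columns, where Tnc was the least abundant of the 10 genes. The log2 change was 3.85 ± 0.30 (SE; limma adjusted p = 0.0995), and its own WT columns differed by more, 0.67 on the log2 scale, than its cKO columns, 0.49.

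Postn and Sparc encode the other matricellular proteins. Postn, periostin, which binds collagen and supports its cross-linking, had 338 and 51.5 TPM in the cKO columns, against 20.5 and 16.3 TPM in the WT columns. Its cKO columns were the furthest apart of all 10 genes, with column cKO-1 at 6.56 times column cKO-2, and its group difference was the least precise, at 2.79 ± 0.94 (SE) on the log2 scale, with an adjusted p of 0.309 in limma. Sparc, a calcium- and collagen-binding glycoprotein, had 1227 and 786 TPM in the cKO columns, against 390.0 and 387 TPM in the WT columns. It was the most abundant of the 10 genes in each of the 4 libraries, and its WT columns were nearly equal. The log2 change of 1.34 ± 0.24 (SE; limma adjusted p = 0.236) was the second smallest of the 10.

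Acta2 had 89.3 and 60.4 TPM in the cKO columns, against 39.03 and 27.5 TPM in the WT columns. The groups did not overlap, and the lower cKO column was 1.55 times the higher WT column, the narrowest such margin among the 10. The log2 change was 1.14 ± 0.27 (SE; limma adjusted p = 0.260). Actin genes have closely similar coding sequences, and how shared reads were assigned is not given in the sources used here.

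The genes fell apart in how far the cKO columns differed from each other, a grouping seen only after their values were known. Column cKO-1 exceeded column cKO-2 by at least 1 on the log2 scale for 6 of 10 genes, against 4.25% of tested genes: Postn, Col3a1, Col1a2, Col1a1, Col5a1 and Col6a1. These were the 5 collagens and periostin, at 2.42 to 6.56 times. For Sparc, Acta2, Tnc and Fn1 column cKO-1 was 1.35 to 1.56 times column cKO-2. These contrasts are between single libraries and have no replicate check. In column cKO-2 alone the 5 collagens and Postn lay within a narrow band, 2.67 to 3.37 times the mean of the WT columns, with Fn1 at 4.99 times and Tnc at 14.4 times that mean above it, and Sparc at 2.02 times and Acta2 at 1.82 times below it. With the cKO columns higher, the gap between groups exceeded the range within either group for 5 of 10 genes, against 14.0% of tested genes. These were Tnc, Fn1, Col5a1, Sparc and Acta2. Col5a1 passed narrowly, with a gap of 1.40 and a range of 1.37 on the log2 scale. Col6a1 fell just short, with a gap of 1.23 and a range of 1.26.

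**Figure D3:**
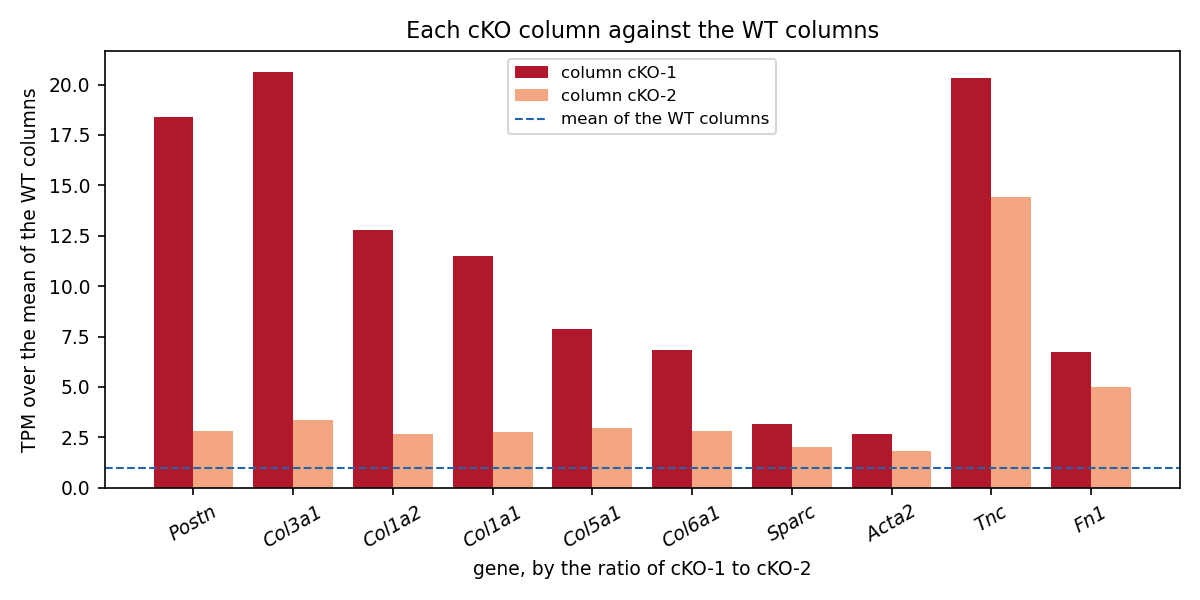
TPM in column cKO-1 (dark bars) and column cKO-2 (light bars) divided by the mean of the WT columns (dashed line at 1), with the genes ordered by the ratio of cKO-1 to cKO-2. The dark bars exceed the light ones most for Postn (6.56 times) and least for Fn1 (1.35 times), and in column cKO-2 Tnc stands highest at 14.4.

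Ratios between genes within a library do not depend on the library total. Col1a1 and Col1a2 encode chains that join in the usual type I molecule. The ratio of Col1a1 to Col1a2 was 0.839 and 0.965 in the cKO columns, against 0.925 and 0.944 in the WT columns. Transcripts of both chains thus had nearly equal levels in each library. Over the 4 libraries Col1a1 spanned a range of 12.6 times and Col1a2 of 14.1 times. Col3a1 to Col1a1 was 1.91 and 1.30 in the cKO columns, against 1.15 and 0.959 in the WT columns, without overlap. Col5a1, Col6a1 and Postn relative to Col1a1 overlapped between the groups.

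The ratios of Sparc, Acta2, Tnc and Fn1 to Col1a1 also varied between libraries. Sparc to Col1a1 was 2.25 and 5.99 in the cKO columns, against 7.58 and 8.92 in the WT columns, and Acta2 to Col1a1 was 0.164 and 0.461 in the cKO columns, against 0.759 and 0.635 in the WT columns. Both ratios were lower in the cKO columns, where Sparc and Acta2 themselves were higher. Tnc to Col1a1 was 0.158 and 0.468 in the cKO columns, against 0.106 and 0.0703 in the WT columns, again without overlap. Fn1 to Col1a1 was 0.946 and 2.91 in the cKO columns, on either side of the 1.61 and 1.62 in the WT columns. Fn1 to Tnc was 5.97 and 6.23 in the cKO columns, against 15.2 and 23.1 in the WT columns, lower in the cKO columns and without overlap. This restates that Tnc had a larger log2 change than Fn1. The share of other gene pairs whose ratios do not overlap was not computed. For a difference between 2 groups of 2, an exact permutation test cannot reach the threshold, and none was run on these ratios.

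**Figure D4:**
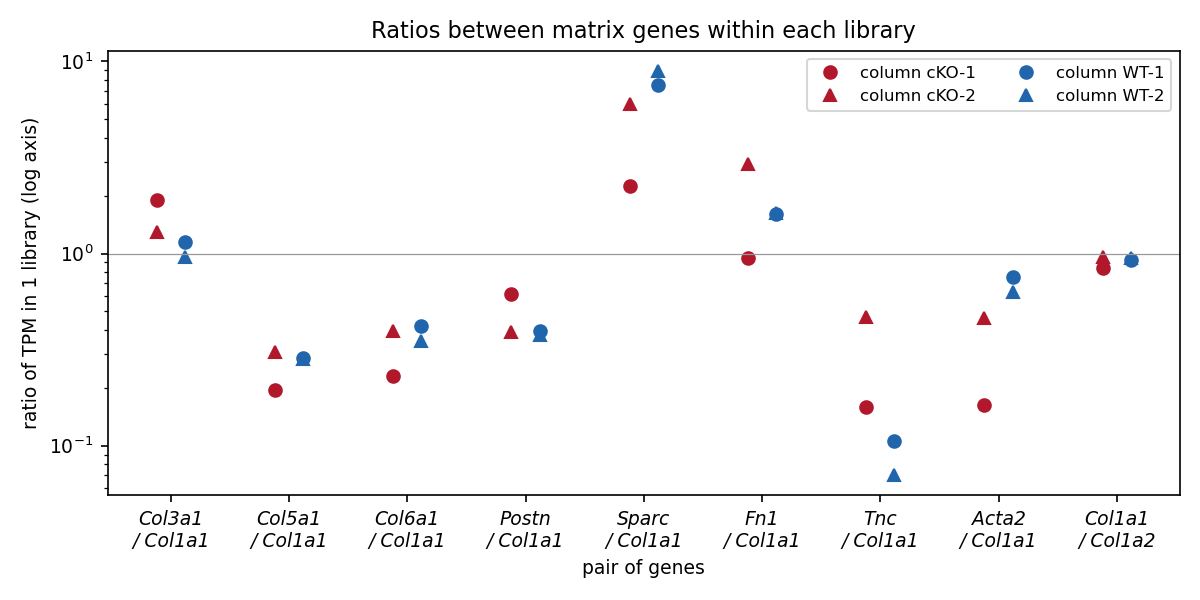
Ratio of TPM of each gene to Col1a1, and of Col1a1 to Col1a2, within each library (log axis); red marks are the cKO columns and blue marks the WT columns, circles replicate 1 and triangles replicate 2. Col1a1 to Col1a2 stays between 0.839 and 0.965 in all 4 libraries, and Sparc and Acta2 relative to Col1a1 are lower in the cKO columns.

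The order of the 10 genes by level differed between libraries. In column cKO-1 it ran Sparc, Col3a1, Col1a2, Col1a1, Fn1, Postn, Col6a1, Col5a1, Acta2 and Tnc, and in column cKO-2 Sparc, Fn1, Col3a1, Col1a2, Col1a1, Tnc, Acta2, Col6a1, Postn and Col5a1. In the WT columns Sparc and Fn1 led and Col5a1 and Tnc came last. Mean levels of Col1a1, Col1a2 and Col3a1 in the WT columns were 47.4 ± 5.71, 50.8 ± 6.85 and 50.4 ± 12.5 TPM (SD, n = 2 each). These SDs are between libraries and do not measure differences between genes of the same library. The top gene exceeded the lowest by 14.2 and 19.5 times in the cKO columns, against 71.6 and 127 times in the WT columns.

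Likeness to Col1a1 was measured as the distance between log2(TPM + 1) profiles over the 4 libraries, each centred on its own mean, among 8510 other genes with a mean of at least 10 TPM. Col1a2 was the nearest of all, at a distance of 0.154. Col5a1 ranked 10, Postn 11, Col6a1 19 and Col3a1 22, and Fn1 53, Sparc 90, Acta2 124 and Tnc 143. The collagens and periostin were nearer to Col1a1 than Fn1, Sparc, Acta2 and Tnc were. The same values of the 4 libraries gave the split by the cKO columns above, so this ranking is not independent of it. Among pairs of the 10 genes, Col1a1 with Col1a2 was closest, then Col5a1 with Col6a1 at 0.217, Col3a1 with Postn at 0.303 and Sparc with Acta2 at 0.395. With 4 points, 2 of them in each group, these distances are descriptions. The nearest genes outside the 10 have no symbol in the tables used here and are not named.

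All 10 log2 changes stayed above 0 when any 1 of the 4 libraries was left out. Since the groups did not overlap for any of the 10, this was fixed in advance. The size of the changes depended on the cKO columns. Without column cKO-1 the median of the 10 was 1.46, with Tnc at 3.61, Fn1 at 2.31, Col3a1 at 1.75 and Col1a1 at 1.45. Without column cKO-2 the median was 3.19, with Col3a1 at 4.36, Postn at 4.14 and Col1a1 at 3.50. Tnc and Fn1 moved least between these fits in proportion to their size, and Postn and Col3a1 most in absolute terms. By construction each move equals the log2 difference between the cKO columns given above, so it adds nothing to it. Without column cKO-2, 5 of the 10 passed, Col1a1, Col1a2, Col5a1, Fn1 and Postn (limma, each with an adjusted p = 0.0474), as did 0.323% of tested genes as higher in the remaining cKO column, which was then alone and was assumed to vary like the WT columns. None of the 10 passed in limma when column cKO-1, WT-1 or WT-2 was left out instead (smallest adjusted p = 0.153). An unadjusted p under 0.05 with a higher value in the cKO columns held for 10 of 10 without column cKO-1, against 7.14% of tested genes. It held for 6 of 10 without column WT-1, against 6.23%, and for 3 of 10 without column WT-2, against 3.69%.

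**Figure D5:**
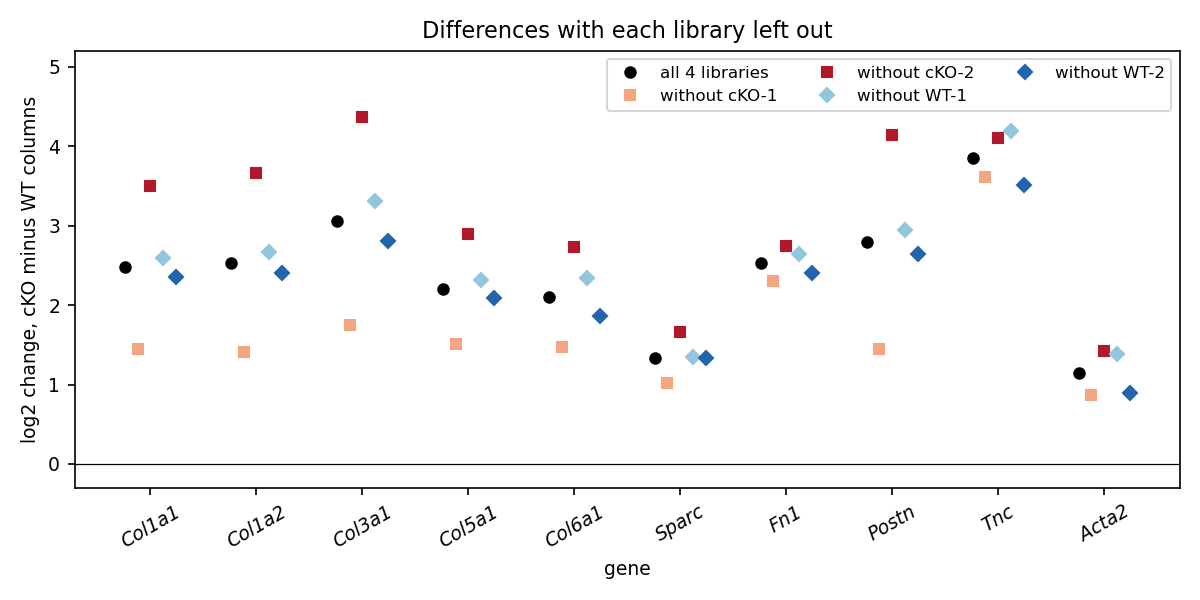
Log2 change (cKO minus WT columns, on the log2(TPM + 1) scale) of each gene with all 4 libraries and with each library left out. Every point lies above 0, which the lack of overlap between the groups fixed in advance. For Col3a1 the values run between 1.75 without column cKO-1 and 4.36 without column cKO-2, and for Fn1 between 2.31 and 2.74.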

How the data were processed

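Stranded mRNA libraries were sequenced. Per the labels' protocols the RNA of every sample came from cultured keratinocytes, which contradicts the labelled skin tissue. The authors deposited TPM as 1 value per gene, with library totals of 999999.26 to 1000000.55 TPM in the mouse table. The builds GRCm39 and GRCh38 are named in the submitters' processing notes, and the sources used here name no aligner or quantifier. These values keep no depth, so no counting interval is given.

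Genes that reached 1 TPM in at least 2 mouse libraries were tested on log2(TPM + 1) with limma 3.58.1 in R 4.3.3 (intensity trend, two-sided, Benjamini-Hochberg over all 14537 tested genes, threshold 0.05). The code was run on simulated data, where only the median size of the estimated log2 change was checked, not the calls at the threshold. Per the series text each library came from its own mouse. The 10 genes, the lists and the rule for named genes (all 10, with Camp and list members where annotated) were chosen with earlier results of these data known. Since no mouse identifier has a symbol in the tables used here, Camp and 18 planned lists of other matrix, pathway and cell type genes were not analysed here, and no mouse sequence is printed. Alternatives were other pseudocounts, filters and scalings, a replicate block, no trend, a fold minimum and each library left out with the tested genes kept.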

Additional observations from a re-analysis of the deposited data

How the results depend on the processing

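All 10 log2 changes stayed above 0 in each of the 14 alternatives run, but only the scalings could have turned a sign. The filters, the replicate block, the trend and the fold minimum leave a log2 change as it was. With no overlap between the groups, another pseudocount or a library left out could not turn its sign. The number of matrix genes past the threshold was 0 with all libraries (limma, 10 at an unadjusted p under 0.05). It became 1 with quantile normalization (Fn1, adjusted p = 0.0338 in limma, among 13 of all tested genes). With the replicate number as a block it became 2 (limma, Fn1, adjusted p = 0.0481, and Tnc, adjusted p = 0.0451, among 6 of all tested genes). Leaving out each library gave 0 to 5, and the number with a higher value and an unadjusted p under 0.05 was then 3 to 10. The number of all tested genes past the threshold was 9, and became 3 with a pseudocount of 0.1, 0 with a pseudocount of 5 (2160 at an unadjusted p under 0.05), 0 with no filter (2869), 3 with a filter of 5 TPM and 17 without the intensity trend. Leaving out each library gave 0 to 55, with 778 to 1489 at an unadjusted p under 0.05 in the 3 fits that gave 0. The cause of these moves was not tested. With quantile normalization the median over all genes was -0.04, against 0.09 as deposited, and the median of the 10 genes lay 2.51 above it, against 2.41. Column numbers are shared between groups, but nothing in the labels says that they pair mice. Over tested genes the differences between replicates 1 and 2 in the cKO and the WT columns correlated at 0.22. In all 10 genes replicate 1 was above replicate 2 in both groups. Their median log2 difference was 1.32 in the cKO columns and 0.29 in the WT columns, against 0.003 and 0.05 over all tested genes. What this adds to the result with the replicate block was not tested. Depth is unknown, so low values such as those of Tnc in the WT columns carry a counting error that cannot be given.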

Other observations

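The human genes of the same names were listed in the A375 libraries, an established human melanoma line grown without other cell types, and are given as levels with no test. These cells were treated with LL-37 at 80 µg/mL or left untreated (Ctrl), n = 3 each. COL1A2 was at most 0.07 TPM in the LL-37 libraries and at most 0.13 TPM in the Ctrl libraries. POSTN was at most 0.04 TPM with LL-37 and at most 0.03 TPM in Ctrl, and COL3A1 was at most 0.07 TPM with LL-37 and at most 0.05 TPM in Ctrl. COL1A1 was 0.447 ± 0.287 TPM with LL-37 and 0.547 ± 0.121 TPM in Ctrl, and COL5A1 was 2.12 ± 1.29 TPM with LL-37 and 3.23 ± 0.39 TPM in Ctrl (SD, n = 3 each). Other genes of the set were abundant in these cells. SPARC was 451 ± 44.7 TPM with LL-37 and 673 ± 28.3 TPM in Ctrl, TNC was 186 ± 101 TPM with LL-37 and 238 ± 13.3 TPM in Ctrl, and COL6A1 was 99.6 ± 45.8 TPM with LL-37 and 119 ± 6.99 TPM in Ctrl. FN1 was 16.1 ± 7.50 TPM with LL-37 and 39.5 ± 3.80 TPM in Ctrl, and ACTA2 was 5.36 ± 1.56 TPM with LL-37 and 7.06 ± 0.221 TPM in Ctrl. LL-37 replicate 3 had the lowest value of the 6 libraries for COL1A1, COL5A1, COL6A1, SPARC, FN1, TNC and ACTA2. TNC was 69.8 TPM in it, against 246 and 242 TPM in LL-37 replicates 1 and 2, and COL6A1 was 46.7, against 126 and 127 TPM. For TNC, COL6A1 and COL1A1, LL-37 replicates 1 and 2 were not both below the Ctrl libraries. COL5A1, SPARC, FN1 and ACTA2 were lower in every LL-37 library than in every Ctrl library. For COL5A1 the margin was small in LL-37 replicates 1 and 2, with 2.84 and 2.9 TPM against a lowest Ctrl value of 2.99 TPM. The share of all human genes without overlap was not computed, so no result about these genes is drawn from it. Whether the mouse melanoma cells in the skin samples carry any of these transcripts was not tested.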
